A study of Mus musculus with 6 samples.

Results

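Mitochondrial ribosomal protein genes were described in epithelial cells of the mouse colon, from wild type animals and from animals whose Nr3c1 gene, which encodes the glucocorticoid receptor, was knocked out in intestinal epithelium. Members were the table's rows whose mouse gene symbol is Mrpl or Mrps followed by a digit, pseudogenes left out. This rule found 78 of 23725 rows, and 77 of them reached 10 normalized reads in 3 or more of the 6 libraries, as did 12837 genes in all. The one member below that level, Mrpl53, was listed at 0 in all 6 libraries. In the annotation 88.0% of its exonic bases are shared with other genes (Ccdc142os and Gm42688), so the 0 cannot be told apart from reads that were not assigned to it.

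The 6 libraries came from 2 groups of 3, all on the C57BL/6J background. The knockout genotype is B6-Cg-Nr3c1-Vil-Cre/ERT2, also written Nr3c1IEC-/-, in which a tamoxifen-activated Cre is driven by the villin promoter of intestinal epithelium. The same tamoxifen protocol, intraperitoneal injection on 5 consecutive days with cells taken 7 days after the first dose, is given for both genotypes. The labels state neither whether wild type mice carried the Cre transgene, nor which exon was deleted, nor the age of the mice. Cells were enriched on a Percoll gradient and not cultured, and the libraries held 10089313 to 12030844 recovered reads.

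The mitoribosome translates the few messenger RNAs encoded by mitochondrial DNA, all for subunits of the respiratory chain and ATP synthase. All of its proteins are encoded in the nucleus, made in the cytosol and imported. Its large subunit, built mostly of Mrpl proteins, holds the peptidyl transferase centre, and its small subunit, built mostly of Mrps proteins, decodes the messenger. Some proteins have bacterial counterparts and others exist only in mitochondria. Colonocytes take much of their energy from mitochondrial oxidation of butyrate.

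Nr3c1 itself, with normalized values of 1120, 967.1 and 196.7 in wild type replicates 1 to 3 and 144.7, 123.1 and 174.7 in the knockout, set 1 library apart. The library labelled wild type replicate 3 lay close to the knockout libraries and goes against its label at this gene. The groups did not overlap (two-sided exact permutation p = 0.1, the smallest that 3 against 3 libraries allow), with a log2 change of −2.03 (limma adjusted p = 0.0372, and 0.000731 without that library). All 12 epithelial markers were detected in every library, with summed values of 481300 to 509000 in wild type and 359600 to 456100 in the knockout; 2 were raised (Vil1, Krt20) and 3 lowered (Cdx2, Car1, Muc2). Summed values of 33 immune and stromal markers were 1249 to 2450 in wild type and 4348 to 11070 in the knockout. Of these markers, 1 to 4 were at 0 in each library (Cdh5, an endothelial marker, in all 3 wild type ones). Of the 19 tested, 9 were raised (47.4%, beside 15.0% of all genes tested). A marker could pass the filter on low values through the knockout libraries alone, so the tested ones may favour raised markers. The part of the immune and stromal markers in the results below was not tested, apart from a fit with a marker covariate. That fit holds fixed the mean log2 level of the 19 tested markers, not the sum of all 33. In bulk samples, fewer cells of a type and less RNA per cell cannot be told apart.

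Most mitochondrial ribosomal protein genes moved little. In the knockout 6 rose, namely Mrpl18, Mrpl20, Mrpl33, Mrpl54, Mrps6 and Mrps7, and 3 fell, namely Mrps9, Mrps31 and Mrps35, while 68 did not pass the test (limma on log2(value + 1), Benjamini-Hochberg adjusted p under 0.05 over all 12837 genes). That is 11.7% of the members, beside 30.5% of all genes tested, of which 15.0% were raised and 15.4% lowered. The 6627 genes whose mean lay in the members' range of 172.8 to 1883 normalized reads, a comparison chosen after the values were seen, had 31.4% called. At an unadjusted p under 0.05 there were 8 members higher and 4 lower. When the library labelled wild type replicate 3 was left out, 4 members were raised (Mrpl18, Mrpl33, Mrpl54 and Mrps6) and 1 lowered (Mrps31). Leaving out each other library gave 1 to 6 raised and 0 to 3 lowered, and a fit that also held the immune and stromal marker level fixed called none of either (limma; 1 higher and 0 lower at unadjusted p under 0.05). That covariate had a correlation of 0.878 with genotype across the 6 libraries, and the fit called 23 genes in all, so genotype and marker level cannot be told apart well here. The 9 called members kept their sign in it. The log2 change was 0.69 for Mrpl33, 0.66 for Mrps6, 0.52 for Mrps7, 0.48 for Mrpl20, 0.32 for Mrpl54 and 0.2 for Mrpl18. For the lowered members it was −0.49 for Mrps31, −0.38 for Mrps9 and −0.2 for Mrps35. Relative to their size, the changes of Mrpl18 and Mrps35 shrank the most. Those of Mrpl33, Mrps6, Mrps7 and Mrps9 were about as large as or larger than without the covariate.

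**Figure D1:**
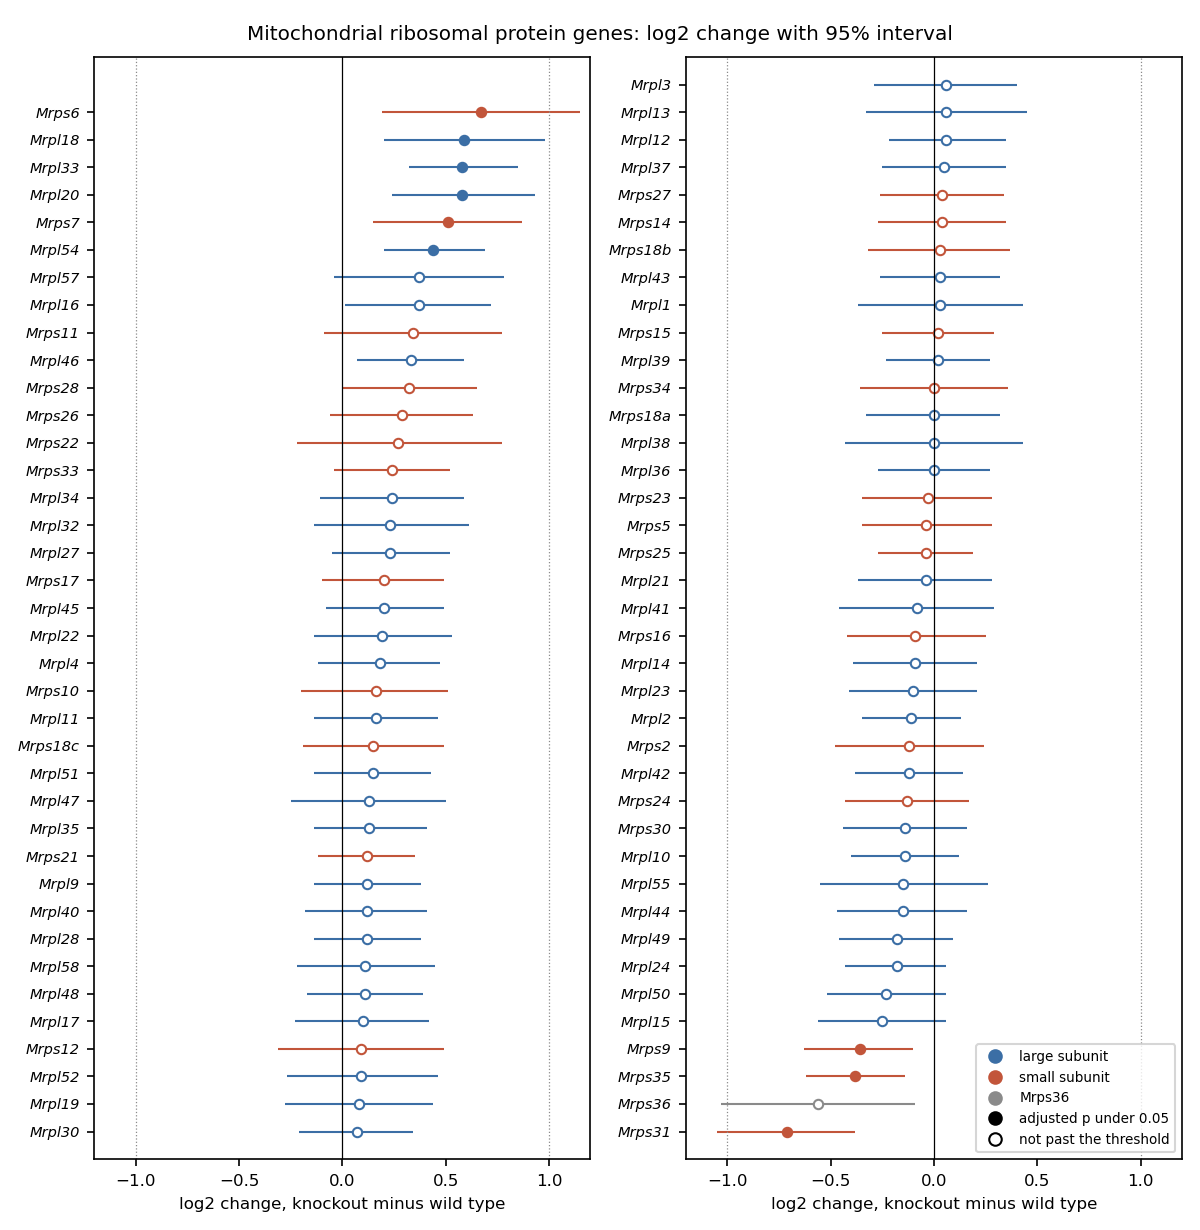
Log2 change, knockout minus wild type, of each of the 77 members tested (points, with 95% intervals as lines), ordered by change and coloured by subunit, with filled points for the 9 past the threshold. Dotted lines mark a 2-fold change; points run from −0.71 (Mrps31) to 0.67 (Mrps6) and no point reaches a dotted line.

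The changes were small in both directions. The median log2 change of the 77 members was 0.0649, with quartiles of −0.0837 and 0.194 and a range of −0.71 to 0.67. Over all genes tested the median was 0.01, with quartiles of −0.384 and 0.373 and a range of −6.41 to 7.03. The SD of the log2 changes was 0.241 over the members and 0.968 over all genes. No member changed 2-fold, against 17.2% of all genes and 11.2% of those in the members' level range. For 74 of 77 members (96.1%) the whole 95% interval lay within 2-fold of no change, the exceptions being Mrps6, Mrps31 and Mrps36. The same held for 61.1% of all genes and 76.1% of those in the level range. These values describe the list, and members are not independent replicates.

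**Figure D2:**
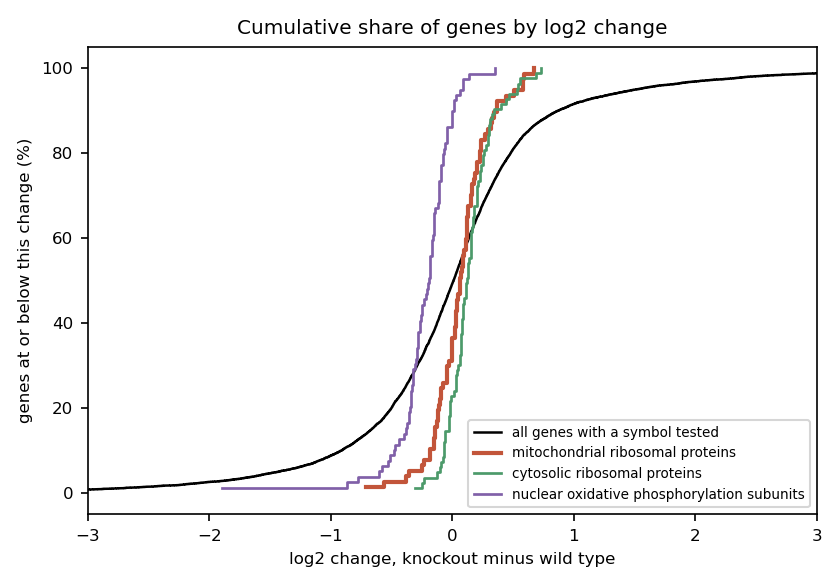
Cumulative share of genes (vertical axis, percent) at or below each log2 change, knockout minus wild type (horizontal axis, cut at 3 in each direction), for the members, all tested genes with a symbol, cytosolic ribosomal proteins and nuclear oxidative phosphorylation subunits. The curve of the members climbs steeply around its median of 0.0649, and that of the oxidative phosphorylation subunits lies to its left with a median of −0.188.

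Sequences near the members' starts are shown for motifs of known regulators of mitochondrial genes, which the symbols did not select for and which a minority of the members hold. No enrichment was tested. RefSeq promoters of GRCm38.p6 (250 bases before to 50 after the start) were found for 68 of the 77 tested members, 74 promoters in all. Each was searched on both strands for exact letters. The NRF1 motif GCGCATGCG, read by a regulator of nuclear genes for mitochondrial proteins, was in 9.46% of members' promoters, against 3.42% of the 12960 promoters of tested genes and 1.75% of all 32851. The YY1 motif AAGATGGCG was in 10.8%, against 2.91% and 1.40%. The ETS motif CCGGAAGT, the kind bound by the GABP complex, was in 16.2%, against 7.82% and 3.89%. The other motifs searched were no more frequent than among tested genes. The E-box CACGTG was in 9.46% of members' promoters, against 9.65% of those of tested genes and 7.15% of all. The GC box GGGCGG was in 52.7% of members' promoters, against 60.6% and 35.7%. The TATA box TATAAA was in 6.76% of members' promoters, against 7.81% and 13.6%. The glucocorticoid receptor half-site AGAACA was in 12.2% of members' promoters, against 12.9% and 19.0%. A match is a description of the letters and not a binding site. None of the 7 motifs contains another, and the NRF1 motif is nearly its own reverse complement.

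NRF1 matches stood in the promoters of 7 members: Mrpl9, Mrpl10, Mrpl17, Mrpl22, Mrpl32, Mrpl39 and Mrps18b. The windows of 4 of them show the match, which was the search string, in capitals, on the strand of the gene, with flanking bases that differ from gene to gene. They lie at chr3:94443298-94443326 (+) for Mrpl9, chr7:105811080-105811108 (−) for Mrpl17, chr11:58171621-58171649 (+) for Mrpl22 and chr16:84735351-84735379 (−) for Mrpl39. In the Mrpl9 and Mrpl39 windows the capitals also cover a second match on the other strand.
Mrpl9: aggcgcagctGCGCATGCGCggggtcctt
Mrpl17: ccgagttactGCGCATGCGtcctctgaga
Mrpl22: gcctcggactGCGCATGCGtatagtcagc
Mrpl39: aaggagaggcGCGCATGCGCccccgcgtg

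YY1 matches stood in the promoters of 8 members: Mrpl35, Mrpl36, Mrpl37, Mrpl42, Mrps11, Mrps18a, Mrps24 and Mrps27. In 4 of these promoters the ATG inside the capitals is also the annotated start of translation, and those windows are shown. They lie at chr6:71823743-71823771 (−) for Mrpl35, chr17:46111005-46111033 (+) for Mrps18a, chr11:5707652-5707675 (−) for Mrps24 and chr13:99344790-99344818 (+) for Mrps27.
Mrpl35: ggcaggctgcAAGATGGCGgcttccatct
Mrps18a: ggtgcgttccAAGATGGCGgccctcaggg
Mrps24: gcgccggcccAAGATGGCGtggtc
Mrps27: ggtgcgctccAAGATGGCGgctcccatgg

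None of the 15 members with an NRF1 or YY1 match passed the test between genotypes (limma, edgeR and DESeq2 alike). By limma 11.7% of all members and 30.5% of all genes were called. With so few called members, 15 genes cannot show a difference from the other members, and none was tested. Of the 9 called members, Mrpl18 and Mrpl33 held the ETS motif, Mrpl20 the E-box, and Mrpl18, Mrps6, Mrps7 and Mrps9 the GC box. None of the called members' promoters found held AGAACA. The bases before 3 raised members are printed as 1 example of each of these motifs, with the ETS, E-box and GC box letters in capitals in that order. They lie on the + strand at chr5:31613836-31613955 for Mrpl33, where the match runs across the start of transcription, chr4:155802758-155802877 for Mrpl20 and chr16:92058216-92058335 for Mrps6.
Mrpl33: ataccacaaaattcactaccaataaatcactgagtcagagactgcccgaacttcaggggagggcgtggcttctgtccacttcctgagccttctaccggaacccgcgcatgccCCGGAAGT
Mrpl20: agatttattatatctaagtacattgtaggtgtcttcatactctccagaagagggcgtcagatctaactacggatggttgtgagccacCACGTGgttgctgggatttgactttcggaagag
Mrps6: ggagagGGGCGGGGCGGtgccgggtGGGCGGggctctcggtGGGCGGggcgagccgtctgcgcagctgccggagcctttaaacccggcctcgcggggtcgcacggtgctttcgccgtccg

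Among the 50 tested proteins of the large subunit, 4 (8.0%, beside 15.0% of all genes) rose and none (beside 15.4%) fell by limma. At unadjusted p under 0.05, 6 were higher and 0 lower (limma). The same 4 genes rose, and none fell, with edgeR and DESeq2. The median log2 change of the 50 was 0.0742. Mrpl33, the counterpart of bacterial ribosomal protein L33, lies on chromosome 5 (GRCm38, bases 31613951 to 31622644). Its normalized values were 335.4, 310.0 and 289.6 in wild type and 486.4, 476.0 and 436.3 in the knockout. Every knockout library was above every wild type one. The means were 311.66 ± 22.9 and 466.22 ± 26.4 (SD, n = 3), a log2 change of 0.58 (95% interval 0.32 to 0.85, limma adjusted p = 0.00928). It was the only member whose call held without each of the 6 libraries in turn, with adjusted p of 0.0181 to 0.0396, and with the marker covariate the log2 change was 0.69 but the call was lost (limma adjusted p = 0.458).

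Mrpl54, a protein found in mitochondrial but not bacterial ribosomes, had values of 402.3, 417.5 and 441.7 in wild type and 599.6, 585.6 and 533.7 in the knockout. The groups did not overlap, with a log2 change of 0.44 (SE 0.11, limma adjusted p = 0.0181). The call ended without wild type replicate 1 or 2, where the adjusted p reached 0.0803. Mrpl54 starts 9 bases from Apba3, a gene read in the opposite direction whose log2 change was 0.19 (limma adjusted p = 0.22). Mrpl20, whose bacterial counterpart acts early in assembly of the large subunit, had values of 499.9, 436.1 and 479.0 in wild type and 821.9, 744.0 and 576.6 in the knockout. All 3 knockout libraries were higher, the third by less than the others, and the log2 change was 0.58 (SE 0.15, limma adjusted p = 0.0234). This call ended without any 1 of wild type replicates 1 to 3 or knockout replicate 2, with adjusted p of up to 0.0883.

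Mrpl18 is the counterpart of bacterial L18, a protein of the central protuberance, which faces the small subunit. It had values of 366.2, 399.9 and 484.5 in wild type and 722.3, 665.3 and 506.9 in the knockout. The highest wild type library and the lowest knockout library almost met. The log2 change was 0.59 (SE 0.17, limma adjusted p = 0.0341), and the call ended without wild type replicate 1 or 2 or knockout replicate 1 or 2 (up to 0.121). Of its exonic bases 10.1% are shared with Tcp1, a chaperonin subunit with a log2 change of 0.44 (limma adjusted p = 0.0903), and non-stranded reads of the overlap cannot be told apart. Of the 6 members assigned here to the central protuberance, Mrpl18 was the only one called, beside 30.5% of all genes tested. The assignment of members to sites may not be complete. Of 8 proteins at the rim of the exit tunnel, where the new chain leaves, none was called (log2 changes of −0.18 to 0.2), nor was any of 3 in the stalk, which recruits translation factors (limma, edgeR and DESeq2; none at unadjusted p under 0.05).

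**Figure D3:**
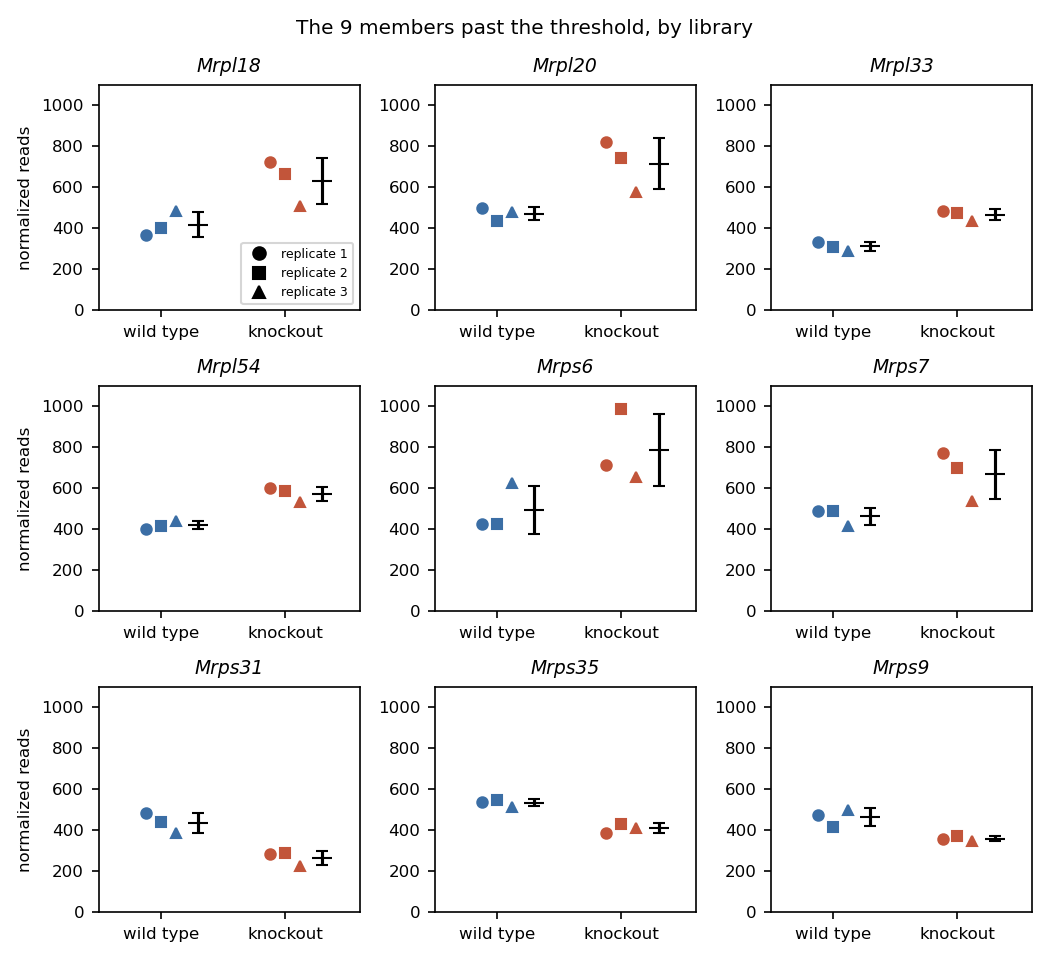
Normalized reads (vertical axes, from 0) of the 9 members past the threshold in 3 wild type and 3 knockout libraries, with a symbol for each replicate and bars for mean and SD. In each panel the knockout libraries all lie on one side of the wild type ones, narrowly for Mrpl18 (484.5 against 506.9) and Mrps6 (626.6 against 656.8).

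The small subunit gave calls both ways, with 2 of 26 proteins raised (7.69%, beside 15.0% of all genes) and 3 lowered (11.5%, beside 15.4%). The median log2 change of the 26 was 0.0407. Mrps31, a mitochondria-specific protein of the head of the subunit, fell the most. Its values were 482.9, 438.1 and 388.0 in wild type and 282.0, 289.7 and 228.2 in the knockout, with no overlap. The means were 436.32 ± 47.5 and 266.62 ± 33.5 (SD, n = 3), a log2 change of −0.71 (95% interval −1.05 to −0.38, limma adjusted p = 0.0103). The call ended only without wild type replicate 1 (adjusted p = 0.051) among the leave-one-out fits.

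Mrps35, also a mitochondria-specific protein of the head, had values of 537.1, 549.5 and 514.6 in wild type and 384.7, 431.5 and 413.4 in the knockout. Each group was tight and the groups were apart, with a log2 change of −0.38 (SE 0.1, limma adjusted p = 0.0294). Even so the call held only without knockout replicate 2 (0.0409) and ended without each other library (up to 0.107). Mrps9, the counterpart of bacterial S9 in the head, had values of 473.4, 417.5 and 500.9 in wild type and 359.6, 372.5 and 346.5 in the knockout. All 3 knockout libraries were lower, and the log2 change of −0.36 (SE 0.12) was close to the threshold (limma adjusted p = 0.0474). Its call ended without any 1 library (0.0642 to 0.148), with no filter, with upper-quartile or quantile scaling, and with DESeq2 (adjusted p = 0.0542).

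Mrps7, the counterpart of bacterial S7, which starts assembly of the head, went the other way. Its values were 488.2, 487.9 and 415.3 in wild type and 770.5, 696.4 and 536.5 in the knockout. The knockout libraries were all higher but spread widely, with a log2 change of 0.51 (SE 0.16, limma adjusted p = 0.0416) that passed only without knockout replicate 3 (0.0192) among the leave-one-out fits (otherwise up to 0.113). Of its exonic bases 11.9% are shared with Gga3 and Mif4gd, whose log2 changes were −0.35 and −0.28 (limma adjusted p = 0.257 and 0.0909). Of the 8 tested head proteins 1 rose and 3 fell, beside 30.5% of all genes called in either direction, and their median log2 change was −0.0437. Whether head proteins differ from the other members was not tested.

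Mrps6, the counterpart of bacterial S6 on the platform of the subunit, had the highest log2 change of the list. Its values were 427.7, 427.3 and 626.6 in wild type and 712.8, 986.1 and 656.8 in the knockout. The library labelled wild type replicate 3 was almost level with knockout replicate 3, and the log2 change was 0.67 (SE 0.21, limma adjusted p = 0.0433). The call held with the library labelled wild type replicate 3 left out and ended without wild type replicate 1 or 2 or knockout replicate 1 or 2 (up to 0.142), and with quantile scaling. Of its exonic bases 19.9% are shared with Slc5a3, an inositol transporter gene, and Gm49711. Slc5a3 had a log2 change of 0.65 (SE 0.25, limma adjusted p = 0.0807), and the reads of the shared exons cannot be told apart.

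**Figure D4:**
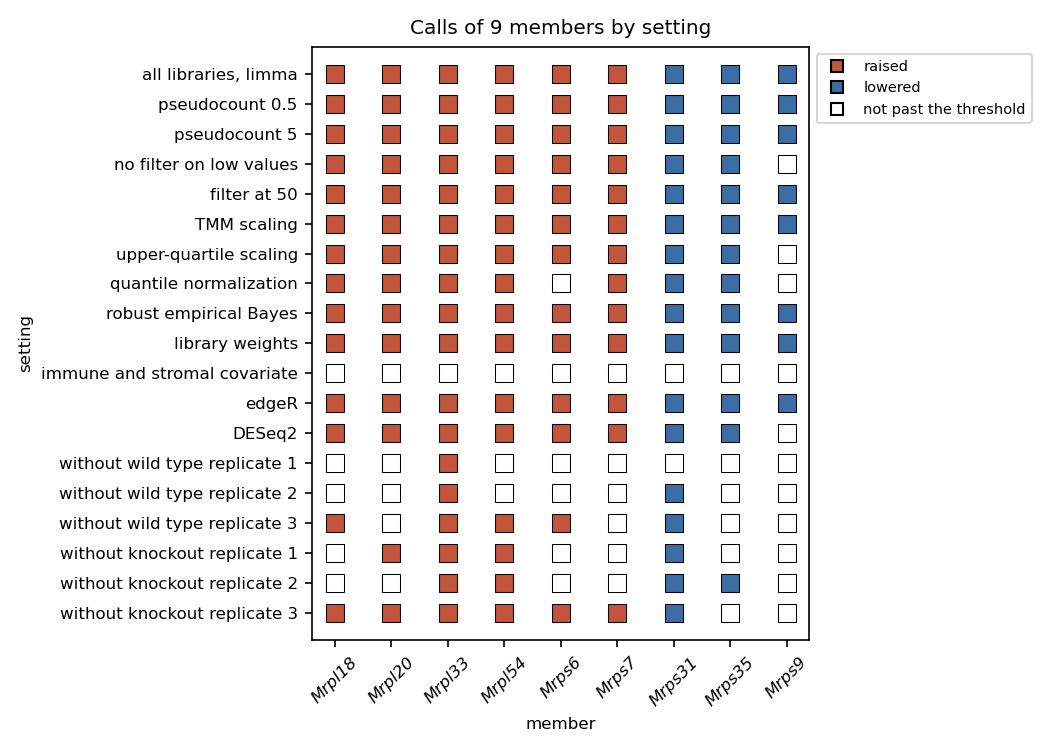
Calls of the 9 members (columns) under each way of processing the data (rows), filled where the limma, edgeR or DESeq2 adjusted p was under 0.05. Mrpl33 is called in every row but that with the immune and stromal covariate, in which none is called, and Mrps9 in no row that leaves out a library.

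The calls were also counted by a class assigned here, either with a bacterial counterpart or mitochondria-specific. This class is not strictly descent. Of the paralogs of the Mrps18 family, Mrps18a and Mrps18b were put under mitochondria-specific and Mrps18c under bacterial counterpart. Of 46 tested members with a bacterial counterpart 5 (10.9%) rose and 1 (2.17%) fell, with a median log2 change of 0.0921. Of 30 that are mitochondria-specific 1 (3.33%) rose and 2 (6.67%) fell, with a median of 0.0282. Among all genes tested 15.0% rose and 15.4% fell. The difference between these classes was not tested.

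Mrps36, named as a small subunit protein but now known as a subunit of the alpha-ketoglutarate dehydrogenase complex of the citric acid cycle, had values of 523.3, 505.5 and 542.8 in wild type and 270.5, 483.2 and 340.8 in the knockout. All 3 knockout libraries were lower, knockout replicate 2 by little. The log2 change of −0.56 (95% interval −1.03 to −0.09) did not pass the test (limma adjusted p = 0.0687), and did so without knockout replicate 2 (0.01). With the marker covariate its sign turned, to a log2 change of 0.08 (limma adjusted p = 0.983). In all, the knockout libraries lay above every wild type one for 12 members and below for 7, and overlapped for 58. Among all genes tested 25.2% lay above and 25.5% below. Besides the called members, those above were Mrpl11, Mrpl27, Mrpl46, Mrps21, Mrps26 and Mrps28, and those below were Mrpl42, Mrpl49, Mrpl50 and Mrps36.

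The Mrps18 family has 3 paralogs in mammals, of which Mrps18a belongs to the large subunit and Mrps18b and Mrps18c to the small one. Mrps18a had values of 364.1, 401.9 and 349.7 in wild type and 424.6, 377.7 and 316.0 in the knockout. Mrps18b had values of 447.9, 497.7 and 507.3 in wild type and 605.9, 457.3 and 431.5 in the knockout. Mrps18c had values of 260.0, 294.3 and 310.6 in wild type and 376.3, 303.2 and 286.4 in the knockout. The groups overlapped for each, with 95% intervals of the log2 change of −0.33 to 0.32, −0.32 to 0.37 and −0.19 to 0.49 (limma adjusted p = 0.982, 0.903 and 0.448). In each of the 3, knockout replicate 1 was highest and knockout replicate 3 lowest among the knockout libraries.

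Other members with a known second role or an odd name also did not pass. Mrps30, which despite its name sits in the large subunit, had a log2 change of −0.14 (95% interval −0.44 to 0.16, limma adjusted p = 0.416). Mrpl58, a peptidyl-tRNA hydrolase that frees stalled chains, had 334.3, 289.4 and 402.5 in wild type and 386.8, 362.1 and 352.3 in the knockout, a log2 change of 0.11 (limma adjusted p = 0.572). Mrpl12, a stalk protein that also binds the mitochondrial RNA polymerase, had 1863, 1819 and 1824 in wild type and 2067, 2090 and 1637 in the knockout. The wild type libraries were within a narrow band and the knockout ones on both sides of it (95% interval −0.22 to 0.35, limma adjusted p = 0.704).

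Levels between members were compared as mean normalized reads over all 6 libraries per kilobase of the longest annotated coding sequence. Mrpl12 was highest at 3123, then Mrpl51 at 2232 and Mrps21 at 2076. The lowest of the tested members were Mrpl1 at 221.5, Mrps30 at 226.8 and Mrps22 at 239.4. Length matters to this order. Per kilobase of exon in the same transcript, Mrpl51 stood at 250.1 and Mrps22 at 215.4. None of these 6 was called between genotypes.

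The level of the whole list differed between libraries of the knockout group. Taking each member's log2 level relative to its own mean over the 6 libraries, the library medians were −0.00943, −0.069 and 0.00327 in wild type and 0.184, 0.053 and −0.143 in the knockout. By these medians knockout replicate 1 was above, and knockout replicate 3 below, every wild type library. Of the 77 members, 43 had their highest value in knockout replicate 1 and 37 their lowest in knockout replicate 3. Summed values of the members were 33567, 32479 and 33491 in wild type and 37759, 36190 and 30945 in the knockout, with means of 33179 ± 607 and 34965 ± 3570 (SD, n = 3). The summed values of the groups overlapped. As a share of all normalized reads, the members made up 0.313%, 0.293% and 0.306% in wild type and 0.305%, 0.31% and 0.269% in the knockout. By this share knockout replicate 1 lay within the wild type range, and knockout replicate 3 was still below every wild type library. Without knockout replicate 1 the median log2 change of the members was −0.026, and without knockout replicate 3 it was 0.164, so the sign of the median turned without knockout replicate 1. Knockout replicate 1 also had the highest immune and stromal marker sum (11070), and the part of those cells in the list's level was not tested.

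**Figure D5:**
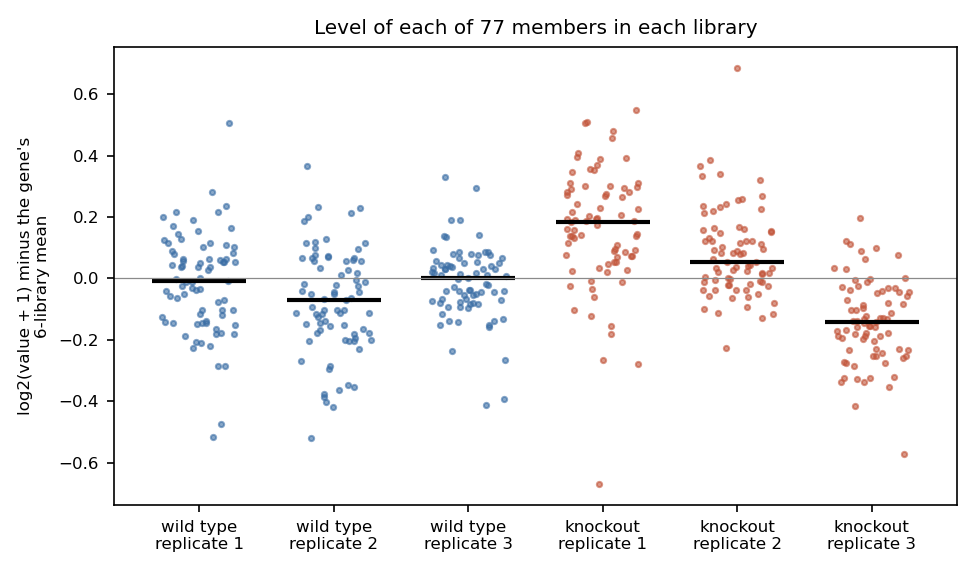
Level of each of the 77 members in each of the 6 libraries (points; vertical axis, log2(value + 1) minus the gene's mean over the 6 libraries) with the library's median as a bar. Medians run from −0.143 in knockout replicate 3 to 0.184 in knockout replicate 1, and the wild type medians lie between.

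Some members share a start region with another gene read in the opposite direction. Of the tested members, 19 had such a protein-coding neighbour within 1000 bases. One such pair is made of members: Mrpl46, of the large subunit, and Mrps11, of the small subunit platform, have 41 bases between their starts at chr7:78783090-78783130, printed on the + strand because the pair shares it, with a GC box in capitals.
Mrpl46-Mrps11: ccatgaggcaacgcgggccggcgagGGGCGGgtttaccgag

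Mrpl46 had values of 305.7, 307.0 and 334.2 in wild type and 425.6, 397.3 and 369.5 in the knockout, a log2 change of 0.33 (95% interval 0.07 to 0.59, limma adjusted p = 0.0613). Mrps11 had 169.8, 132.0 and 153.0 in wild type and 223.3, 204.9 and 153.7 in the knockout, a log2 change of 0.34 (95% interval −0.09 to 0.77, limma adjusted p = 0.188). Both were highest in knockout replicate 1, and neither passed the test. In the GENCODE annotation, however, 12.2% of the exonic bases of Mrpl46 are shared with Mrps11, and 7.97% of those of Mrps11 with Mrpl46. Non-stranded reads of the overlap cannot be told apart, so the 2 changes are not fully separate readings. Of the neighbours, 2 were raised and 2 lowered while the member beside them was not called. Among all genes tested 15.0% were raised and 15.4% lowered. Psma2, a proteasome subunit, had a log2 change of 0.49 (limma adjusted p = 0.0372) beside Mrpl32 at 0.23, and Ppp1r10 0.4 (0.0404) beside Mrps18b at 0.03. Abhd8 had −1.53 (limma adjusted p = 0.00582) beside Mrpl34 at 0.24, starting 219 bases away, and Pnpla7 −0.78 (0.028) beside Mrpl41 at −0.08. The difference within these pairs was not tested.

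Proteins of the mitoribosome under other names also had small changes. Dap3, Ptcd3, Chchd1, Aurkaip1 and Gadd45gip1 had log2 changes of −0.1 to 0.22, and none of the 5 was called (limma, edgeR and DESeq2; none at unadjusted p under 0.05). Of 25 assembly factors 3 (12%, beside 15.4% of all genes) fell by limma. None rose by limma, edgeR or DESeq2, and none was higher at unadjusted p under 0.05 (limma). The count lowered was 3 with edgeR, 2 with DESeq2, 1 with quantile scaling and 0 with the marker covariate. The pseudouridine synthase gene Trub2 went from 190.19 ± 30.4 to 119.39 ± 17.7 (SD, n = 3; log2 change −0.66, limma adjusted p = 0.0303). Rpusd4, another pseudouridine synthase gene, went from 210.63 ± 25.7 to 148.47 ± 9.11 (−0.5, limma adjusted p = 0.0386). Nsun4, an rRNA methyltransferase gene, went from 147.25 ± 6.39 to 105.28 ± 10.6 (−0.48, limma adjusted p = 0.0446). Further rRNA methyltransferases of the same list, named after their values were seen, did not pass. Mrm2 and Mrm3 had log2 changes of 0.01 and 0.17 (limma adjusted p = 0.99 and 0.514). Mrm1 and Mettl15 had −0.56 and −0.74 (limma adjusted p = 0.0527 and 0.0591), with all knockout libraries below all wild type ones. Tfb1m had −0.28, with overlapping groups (limma adjusted p = 0.393). Leaving out single libraries left 0 to 2 of the assembly factors lowered, 2 of them without the library labelled wild type replicate 3.

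Other genes of mitochondrial translation, in 3 lists, were called at shares below the 30.5% of all genes tested. The shares lowered were 7.69% of translation factors, 10% of synthetases and 25% of the nucleic acid list, beside 15.4% of all genes tested. The nucleic acid list holds only 12 genes, too few to read its 25% as a difference. Of 13 translation factors 1 fell, Mtres1, a rescue factor, from 299.19 ± 9.91 to 224.78 ± 11.1 (SD, n = 3; log2 change −0.41, limma adjusted p = 0.0317). Of 20 mitochondrial aminoacyl-tRNA synthetases, which charge tRNAs, 2 fell. Rars2, for arginine, had a log2 change of −0.54 (limma adjusted p = 0.0132), and Fars2, for phenylalanine, −0.44 (0.0218). Of 12 genes that copy, transcribe or stabilise mitochondrial nucleic acid, 3 fell. Polg2, the accessory subunit of the mitochondrial DNA polymerase, went from 126.76 ± 30.2 to 53.706 ± 23.8 (SD, n = 3; −1.31, limma adjusted p = 0.0312). Tfb2m, a transcription initiation factor, had −0.45 (limma adjusted p = 0.0283), and Lrpprc, which stabilises mitochondrial messengers, −0.37 (0.0408). No gene of these 3 lists rose by limma, edgeR or DESeq2, and none was higher at unadjusted p under 0.05. The median log2 changes were −0.216 for translation factors, −0.211 for synthetases, −0.195 for the nucleic acid list and −0.0808 for assembly factors, beside 0.0649 for the ribosomal proteins. These counts rest on single libraries. Over the leave-one-out fits 0 to 1 translation factors, 0 to 3 synthetases and 0 to 4 genes of the nucleic acid list were lowered (limma). With the library labelled wild type replicate 3 left out, 2 synthetases were the only calls of the 3 lists, and with wild type replicate 1 or 2 left out there was none. Mitochondrially encoded messengers, which the mitoribosome translates, were not analysed here.

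Among 8 nuclear regulators of mitochondrial genes, Ppargc1b, a coactivator, fell. Its values were 702.6, 531.0 and 537.3 in wild type and 207.6, 309.4 and 313.1 in the knockout. The groups were far apart, with a log2 change of −1.1 (SE 0.2, limma adjusted p = 0.0065), and the call held without each library. It ended with the marker covariate (log2 change −0.36, limma adjusted p = 0.843). Its relative Ppargc1a had 355.6, 305.1 and 338.8 in wild type and 29.35, 247.3 and 197.6 in the knockout. All 3 knockout libraries were lower, 1 of them far below the others, and the log2 change of −1.54 (SE 0.7) did not pass (limma adjusted p = 0.129). That library, knockout replicate 1, widens the spread of Ppargc1a. When it was left out, 2 of the 8 regulators were lowered, against 1 with all 6 libraries (limma). Esrra, a nuclear receptor that works with Ppargc1a and Ppargc1b, had 1969, 2053 and 2105 in wild type and 2354, 2816 and 2493 in the knockout. All 3 knockout libraries were higher, and the log2 change of 0.32 (95% interval 0.07 to 0.57) did not pass (limma adjusted p = 0.0565). It passed with DESeq2 (adjusted p = 0.0402), with library weights (limma, 0.0279) and without knockout replicate 1 (limma, 0.041). Nrf1, Yy1 and Gabpa, whose motifs were searched above, had log2 changes of 0.08, 0.23 and 0.03 (limma adjusted p = 0.673, 0.163 and 0.894). Myc, a broad activator of ribosome genes, had 0.18 (95% interval −0.31 to 0.66).

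Cytosolic ribosomal proteins had a median above that of the mitoribosomal list and nuclear-encoded respiratory subunits a median below it. Of 83 tested cytosolic ribosomal proteins 4 (4.82%, beside 15.0% of all genes) rose by limma (Rps2, Rpsa, Rps27l and Rpl41). The count raised was 4 with edgeR and 5 with DESeq2. None fell by limma, edgeR or DESeq2, and none was lower at unadjusted p under 0.05 (limma). The median log2 change of the 83 was 0.123. Near-identical pseudogenes make counts of these genes uncertain, and leaving out single libraries gave 0 to 5 raised, with 1 raised when the library labelled wild type replicate 3 was left out. Of 79 tested nuclear oxidative phosphorylation subunits 12 (15.2%) fell by limma, a share like the 15.4% of all genes. The count lowered was 9 with edgeR and 12 with DESeq2. None rose by limma, edgeR or DESeq2, and none was higher at unadjusted p under 0.05 (limma). The median log2 change of the 79 was −0.188. In 37 of these subunits (46.8%, beside 25.5% of all genes) all knockout libraries lay below all wild type ones. Cox7a1, a subunit of cytochrome c oxidase, had the lowest adjusted p of these, from 780.48 ± 8.99 to 216.34 ± 65.7 (SD, n = 3; log2 change −1.9, limma adjusted p = 0.00165). The oxidative phosphorylation count was 2 to 27 over the leave-one-out fits, 27 without knockout replicate 2 and 4 with the library labelled wild type replicate 3 left out. It was 22 with quantile scaling and 0 with the marker covariate. No test compared these lists with the mitoribosomal one.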

How the data were processed

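Messenger RNA was measured with non-stranded TruSeq libraries, per the labels' protocols. The deposited table holds a normalized signal, which the authors made as gene counts divided by 1 size factor per library. Undoing that division gave whole reads, within 0.001, for 100% of values. TopHat, FastQC, DESeq2 and mm10 are named without versions in the submitters' processing notes, and no counter or annotation is named in the sources used here. No row was blank or a total. Symbols were matched to 23666 of 23725 Entrez numbers through RefSeq (GRCm38.p6). Coordinates, lengths and overlaps are from GENCODE and RefSeq on GRCm38, which mm10 shares.

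Differences, knockout minus wild type, were tested with limma 3.58.1 (R 4.3.3, trended prior) on log2(value + 1), which understates changes of low genes, for genes with 10 or more normalized reads in 3 or more of 6 libraries. All p-values were adjusted over these 12837 genes by Benjamini-Hochberg, with a threshold of 0.05. Also tried were edgeR 4.0.16 and DESeq2 1.42.0 with recovered reads, other pseudocounts, filters and scalings, library weights, a marker covariate and leaving out each library. The scripts were tested on simulated data. Members and lists were chosen with earlier results of these data known. Members named were up to 12 called in each direction, 7 of known other role or placement (Mrpl12, Mrpl58, Mrps18a, Mrps18b, Mrps18c, Mrps30, Mrps36), the 3 highest and 3 lowest per coding length and those not past the filter; of other lists, up to 3 per direction with the smallest adjusted p. Further genes were chosen after their values were seen. Replicate numbers are names in accession order. The labels do not say that the libraries come from separate animals, so p-values measure the spread between these samples, which may be technical. No replicate pair agreed within sampling noise (chi-square per degree of freedom 14.7 to 56.9). The labels give no batch.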

Additional observations from a re-analysis of the deposited data

How the results depend on the processing

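With all 6 libraries, 6 members were raised and 3 lowered. Both counts were 0 with the immune and stromal marker covariate (limma; 1 member higher and 0 lower at unadjusted p under 0.05). Leaving out 1 library gave 1 to 6 raised and 0 to 3 lowered; the 0 came without wild type replicate 1, with 2 members lower at unadjusted p under 0.05 (limma). Fewer libraries were tested in each of these fits. The other settings gave 5 or 6 raised and 2 or 3 lowered. Of the 9 called members, edgeR called 9, DESeq2 8, TMM 9, upper-quartile 8 and quantile scaling 7, and all 9 kept their sign under the 3 scalings, which moved the median of all genes by −0.0189, 0.0039 and 0.00465. The members' median log2 change of 0.0649 became 0.00188 with library weights, −0.0429 with the covariate and −0.026 to 0.164 over the leave-one-out fits. Its sign turned with the covariate and without knockout replicate 1. The SD of library medians within groups was 0.12, which does not test these shifts. No paired analysis was possible because the labels give the groups no shared replicate numbers. Groups of 3 libraries limit what could be detected, and a member that missed the threshold was not shown to be unchanged.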
